A study of Mus musculus with 12 samples.

Results

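Mast cells make and store histamine and serotonin, and the RNA of 7 genes of these amines was followed in BMMCs, the bone marrow-derived mast cells that grow when marrow of a mouse is cultured with mast cell growth factors. The genes were taken by symbol from the table of read counts: *Hdc*, *Tph1* and *Ddc* for synthesis, *Slc18a2* for storage, and *Hnmt*, *Maoa* and *Maob* for breakdown. All 7 were among the 16234 genes of the table. After a filter on low counts, 12208 genes were tested, and these held 6 of the 7, since *Hnmt* had too few reads.

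Histamine is made from histidine in a single step by histidine decarboxylase, the enzyme encoded by *Hdc*. Serotonin is made from tryptophan in a pair of steps: tryptophan hydroxylase 1, the enzyme of *Tph1*, adds a hydroxyl group, and aromatic L-amino acid decarboxylase, the enzyme of *Ddc*, removes the carboxyl group. The vesicular monoamine transporter encoded by *Slc18a2* loads both amines into secretory granules, from which mast cells release them once antigen crosslinks IgE on FcϵRI, the high-affinity IgE receptor.

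By their labels, the BMMCs were *Elk4* knockout (KO), wild type (WT) or heterozygous (HZ) cells. *Elk4* encodes a transcription factor of the ETS family that works with serum response factor. The mice were conventional knockouts on a C57BL/6N background with WT littermates, 6 to 12 weeks old and of both sexes, so the allele was present in every cell type and the sex behind each library is not given. All cultures were kept for 4 to 8 weeks in IL-3 and SCF, each at 10 ng/ml, and more than 80% of the cells carried both CD117 and FcϵRI. In each genotype, 2 libraries were untreated and 2 came from cells loaded overnight with anti-DNP IgE at 0.5 µg/ml and given the antigen DNP-HSA at 100 ng/ml for 1 h. The labels do not say whether untreated cells received IgE, so IgE and antigen cannot be told apart as the source of a difference between the states. These 6 groups of 2 libraries are called unstimulated and stimulated WT, HZ and KO.

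The 12 libraries held 29697958 to 35531667 counts on genes, with a biological coefficient of variation of 4.01% between replicates. *Elk4* itself had 2253 to 3238 counts in unstimulated and 1867 to 2322 in stimulated libraries and did not follow the genotype labels, which a count over the whole gene cannot check if only part of it was removed. Of 12 mast cell markers, 11 were present, and all of these were tested. Their summed level was 54270 to 66890 CPM (counts relative to the library total, adjusted by TMM scaling for the composition of the library). Summed neutrophil markers stayed at or below 0.269 CPM, and summed macrophage and monocyte markers lay between 8.18 CPM in an unstimulated WT library and 21.3 CPM in a stimulated KO library. Whether a number stands for an animal or a culture is not stated for the replicates, so p-values measure only the spread between libraries, which may be technical.

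Per transcript length and library total (FPKM, as deposited), the members spanned the range from abundant to near absent. *Tph1* (NCBI Gene 21990) was the highest of the 7 in every library, with a lowest, median and highest value of 840.8, 900.2 and 961.6 FPKM. *Slc18a2* (NCBI Gene 214084) followed with 386.2, 473.8 and 590.1 FPKM. *Maob* (NCBI Gene 109731), which encodes monoamine oxidase B, had 141.7, 165.3 and 186 FPKM. Unlike these genes, both decarboxylases moved widely between groups. *Hdc* (NCBI Gene 15186) ran from 7.06 FPKM over a median of 77.1 to 381 FPKM, and *Ddc* (NCBI Gene 13195) from 10.9 over 24.2 to 46.8 FPKM. *Maoa* (NCBI Gene 17161), the gene of monoamine oxidase A, was low at 0.504, 0.891 and 1.37 FPKM, and *Maob* exceeded it 111.9- to 369.5-fold in FPKM over the 12 libraries. *Hnmt* (NCBI Gene 140483), whose product histamine N-methyltransferase inactivates histamine inside cells, did not exceed 0.0780 FPKM. Together the 7 members took 0.633% to 0.721% of the counts of a library.

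**Figure D1:**
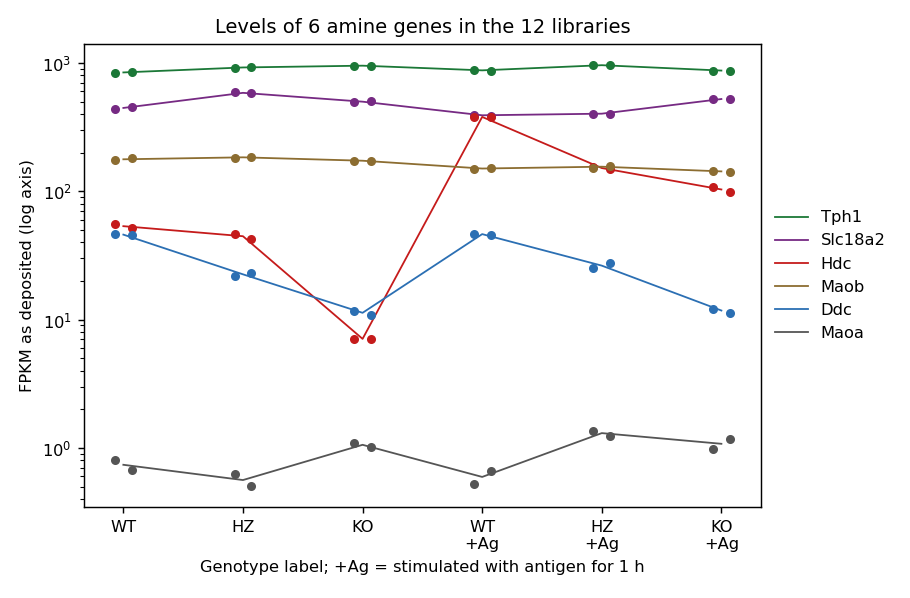
FPKM as deposited (log axis) of 6 members in each library (points) with the group means joined by lines, for unstimulated and stimulated (+Ag) WT, HZ and KO; *Hnmt*, at 0 in several libraries, is left out. *Tph1* lies at the top between 840.8 and 961.6 FPKM, while *Hdc* crosses from below *Ddc* in unstimulated KO to near *Slc18a2* in stimulated WT.

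Both decarboxylase genes were lower in KO, so their promoters are shown here together with that of *Slc18a2*, the one promoter of the members with a cyclic AMP response element. The windows are from RefSeq on GRCm38.p6, run from 250 bases before to 50 bases after the start of a transcript and are written 5′ to 3′ on the strand of the gene. Matches to the motifs searched are in capitals. RefSeq gave 8 such windows for 6 members, and none for *Maob*. The *Hdc* window lies at chr2:126618629-126618928 on the minus strand, those of *Ddc* at chr11:11898095-11898394 and chr11:11890359-11890658 on the minus strand, and that of *Slc18a2* at chr19:59260628-59260927 on the plus strand.
Hdc: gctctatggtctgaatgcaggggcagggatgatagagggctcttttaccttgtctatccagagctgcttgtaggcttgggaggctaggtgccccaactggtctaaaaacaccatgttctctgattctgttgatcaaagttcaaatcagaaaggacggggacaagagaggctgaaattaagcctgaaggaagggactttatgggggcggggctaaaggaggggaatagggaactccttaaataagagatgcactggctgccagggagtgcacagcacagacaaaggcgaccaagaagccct
Ddc, upstream start: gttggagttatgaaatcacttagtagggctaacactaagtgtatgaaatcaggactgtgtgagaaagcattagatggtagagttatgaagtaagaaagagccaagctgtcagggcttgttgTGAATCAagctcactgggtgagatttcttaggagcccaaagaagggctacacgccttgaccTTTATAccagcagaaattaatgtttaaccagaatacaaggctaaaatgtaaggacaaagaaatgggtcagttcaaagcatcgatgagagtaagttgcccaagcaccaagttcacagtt
Ddc, downstream start: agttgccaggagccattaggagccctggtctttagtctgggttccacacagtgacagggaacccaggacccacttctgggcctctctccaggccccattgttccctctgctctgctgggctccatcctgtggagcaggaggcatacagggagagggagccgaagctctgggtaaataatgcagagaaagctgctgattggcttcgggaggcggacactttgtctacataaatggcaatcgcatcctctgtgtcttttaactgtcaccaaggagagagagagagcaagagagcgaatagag
Slc18a2: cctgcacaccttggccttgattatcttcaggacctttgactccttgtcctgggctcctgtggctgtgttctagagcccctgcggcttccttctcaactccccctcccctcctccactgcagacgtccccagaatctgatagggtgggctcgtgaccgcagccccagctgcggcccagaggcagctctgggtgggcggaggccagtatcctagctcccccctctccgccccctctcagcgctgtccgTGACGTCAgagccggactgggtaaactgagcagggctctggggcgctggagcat
On both strands, the motifs searched were the ETS core CCGGAA (14.9% of 32851 promoter windows of this length hold it), the E-boxes CACGTG (7.15%) and CATGTG (14.2%), the AP-1 motif TGANTCA (7.81%), the cyclic AMP response element TGACGTCA (1.79%), the GATA motif GATAAG (7.44%), the EGR motif GCGTGGGCG (0.612%) and the TATA box TATAAA (13.6%). The *Hdc* window held none of these letters. The upstream *Ddc* window held an AP-1 match that begins 129 bases before the start and, on the other strand, a TATA box match that begins 68 bases before it, while the downstream *Ddc* window held none. In *Slc18a2*, the cyclic AMP response element began 4 bases before the start and thus spanned it. The 2 windows of *Tph1* and those of *Hnmt* and *Maoa* held none of the motifs. A match or its absence describes the letters of these windows and was not tied to binding of a factor.

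*Hdc* rose after stimulation in every genotype and was lower in KO than in WT in both states. Unstimulated libraries had 131.1 and 121.7 CPM in WT, 114.3 and 104.2 CPM in HZ, and 16.9 and 17.1 CPM in KO. Stimulated libraries had 1116 and 1106 CPM in WT, 439.6 and 431.7 CPM in HZ, and 315.5 and 290.4 CPM in KO. No groups overlapped, and their order from lowest to highest was unstimulated KO, HZ and WT, then stimulated KO, HZ and WT. The counts behind the lowest group were 635 and 606, against 33145 and 32947 in the highest. Fewer cells that express a gene and less RNA per cell cannot be told apart in RNA of whole cultures, here and in the results that follow.

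The *Hdc* response was 8.79-fold in WT (log2 3.14, standard error 0.0389, adjusted p = 8.76e-48), 3.99-fold in HZ (log2 2.00, adjusted p = 1.43e-39) and 17.8-fold in KO (log2 4.15, adjusted p = 7.3e-49), all from the quasi-likelihood test of edgeR, with the adjustment of Benjamini and Hochberg (Benjamini-Hochberg) over the 12208 genes, as for each adjusted p given here. Measured as a ratio, the response of KO exceeded that of WT by a log2 difference of 1.02 (standard error 0.0636, adjusted p = 1.45e-17, interaction in edgeR), and that of HZ fell short of it by a log2 difference of -1.14 (standard error 0.0534, adjusted p = 7.4e-23, edgeR). Measured as the mean gain in CPM, the order was another one: *Hdc* gained 984.5 CPM in WT, 326.4 CPM in HZ and 286 CPM in KO, which is 33.2% and 29.1% of the WT gain. The larger ratio in KO thus stood on a lower unstimulated level and went with a smaller gain.

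Compared with WT, *Hdc* in KO was at 13.5% of the level in unstimulated cells (log2 -2.89, standard error 0.0505, adjusted p = 2.08e-40, edgeR) and at 27.3% in stimulated cells (log2 -1.87, adjusted p = 2.23e-38, edgeR). HZ lay close to WT before stimulation and far from it afterwards. It was at 86.5% of WT in unstimulated cells (log2 -0.21, adjusted p = 1.86e-05, edgeR) and at 39.2% in stimulated cells (log2 -1.35, adjusted p = 8.67e-33, edgeR). Between KO and HZ, the log2 difference was -2.68 unstimulated (adjusted p = 1.1e-38) and -0.52 stimulated (adjusted p = 3.26e-16, both edgeR). Basophils also make histamine, and their 5 markers, all tested, summed to 667.5 to 672.3 CPM in unstimulated WT, 746.8 to 753.3 in HZ and 527 to 539.1 in KO, most of it *Cd200r3*, while *Mcpt8*, a basophil protease, had 155 and 195 counts in unstimulated WT and 289 and 302 in KO. In stimulated cells the sums were closer, with 593.8 to 595.8 CPM in WT, 530.8 to 539.5 in HZ and 575.6 to 586.2 in KO. Their part in the *Hdc* result was not tested.

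*Ddc* was graded by genotype, at about the same ratios before and after stimulation. Its levels were 106.6 and 105 CPM in unstimulated WT, 52.3 and 55.2 CPM in HZ, and 27.3 and 25.6 CPM in KO. After stimulation they were 133.3 and 131 CPM in WT, 70.4 and 77.0 CPM in HZ, and 34.8 and 32.5 CPM in KO. No groups overlapped, and both KO groups lay below both HZ groups, which lay below both WT groups.

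*Ddc* in KO was at 25.0% of WT in unstimulated cells (log2 -2.00, standard error 0.0585, adjusted p = 3.32e-31, edgeR) and at 25.5% in stimulated cells (log2 -1.97, adjusted p = 4.88e-31, edgeR). HZ was at 50.8% (log2 -0.98, adjusted p = 1.6e-20, edgeR) and 55.7% of WT (log2 -0.84, adjusted p = 5.59e-18, edgeR). KO was again lower than HZ, by log2 differences of -1.02 unstimulated and -1.13 stimulated (adjusted p = 4.59e-19 and 2.92e-20, edgeR). *Ddc* responded to stimulation by 0.32 in WT, 0.46 in HZ and 0.35 in KO on the log2 scale (adjusted p = 1.13e-06, 1.03e-09 and 1.85e-05, edgeR), but with library totals in place of TMM the values were 0.01 in WT and 0.06 in KO and did not pass. The KO response differed from that of WT by 0.03 on the log2 scale (95% interval -0.14 to 0.19, adjusted p = 0.906, edgeR), and the HZ response by 0.13 (95% interval -0.02 to 0.29, adjusted p = 0.167, edgeR). According to RefSeq, *Ddc* overlaps the non-coding genes *Gm51937* and *1700042O10Rik*, and as a strand setting for the counting is not given in the sources used here, reads of such partners cannot be told apart.

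**Figure D2:**
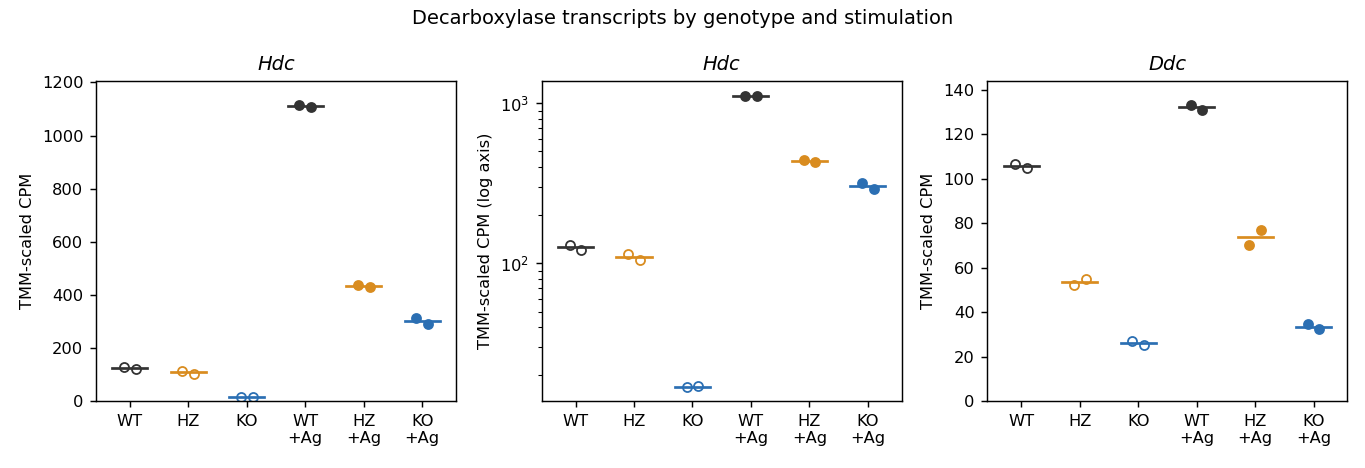
TMM-scaled CPM of *Hdc* on a linear and on a log axis and of *Ddc* on a linear axis, with open points for unstimulated and filled points for stimulated (+Ag) libraries and a line at the mean of each group of 2. *Hdc* reaches 1111 CPM on average in stimulated WT against 303 in stimulated KO, and *Ddc* falls in steps from WT over HZ to KO in both states.

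As *Hdc* moved and *Ddc* followed genotype, the balance of the decarboxylases shifted with the state of the cells. The ratio of *Hdc* to *Ddc* in FPKM was 1.20 and 1.13 in unstimulated WT, 2.13 and 1.84 in HZ, and in KO 0.604 and 0.651. In stimulated libraries it was 8.15 and 8.22 in WT, 6.08 and 5.46 in HZ, while KO had 8.82 and 8.71. Unstimulated KO was the one group with more *Ddc* than *Hdc* per length. For the serotonin enzymes, *Tph1* exceeded *Ddc* 18.2- to 18.9-fold in FPKM in the WT libraries, 35.1- to 41.9-fold in HZ and 71.4- to 87.0-fold in KO.

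*Tph1*, the gene of the first enzyme of serotonin synthesis, differed little between groups, with a ratio of 1.39 between its highest and lowest library in CPM. Unstimulated levels were 3559 and 3551 CPM in WT, 4012 and 4035 in HZ, and in KO 4075 and 4076. Stimulated levels were 4603 and 4535 CPM in WT, 4889 and 4950 CPM in HZ, and 4557 and 4566 CPM in KO. Unstimulated WT was the lowest group and stimulated HZ the highest, while stimulated WT and KO overlapped.

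The *Tph1* response was 0.36 in WT, 0.29 in HZ and 0.16 in KO on the log2 scale (adjusted p = 3.48e-22, 8.08e-19 and 2.71e-10, edgeR), but with library totals in place of TMM the values were 0.05, 0.06 and -0.13. The response of KO was below that of WT by a log2 difference of -0.20 (adjusted p = 1.01e-07, edgeR), and that of HZ by -0.07 (adjusted p = 0.0238, edgeR), a difference that was 0.0046 with library totals and, without stimulated WT replicate 1 or stimulated HZ replicate 1, was -0.06 and did not pass. Unstimulated *Tph1* was higher than in WT by 0.20 in KO and by 0.18 in HZ on the log2 scale (adjusted p = 9.22e-13 and 1.24e-11, edgeR). In stimulated cells it was higher by 0.11 in HZ (adjusted p = 5.63e-06, edgeR), and KO differed from WT by -0.0023 (95% interval -0.04 to 0.03, adjusted p = 0.939, edgeR). Between KO and HZ, the *Tph1* difference was 0.02 unstimulated (adjusted p = 0.436) and -0.11 stimulated (adjusted p = 5.8e-06, both edgeR). The brain form of the enzyme, encoded by *Tph2*, had 0 counts in all 12 libraries, where a count of 0 allows up to 0.0844 to 0.101 CPM (3 counts of a library, counting error only).

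*Slc18a2*, the vesicle transporter shared by histamine and serotonin, moved in a different direction in HZ than in KO. Unstimulated levels were 1497 and 1531 CPM in WT, 2073 and 2036 CPM in HZ, and 1709 and 1732 CPM in KO. Stimulated levels were 1661 and 1626 CPM in WT, 1659 and 1661 CPM in HZ, and 2198 and 2211 CPM in KO. HZ was the highest unstimulated group and KO the highest stimulated one, and stimulated HZ overlapped with stimulated WT.

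*Slc18a2* rose in KO by 0.36 on the log2 scale (adjusted p = 7.87e-19, edgeR; 0.07 with library totals) and fell in HZ, with a log2 difference of -0.31 (adjusted p = 8.59e-17, edgeR). In WT its response was 0.12 (adjusted p = 1.73e-05, edgeR), a direction that turned to -0.19 with library totals. The response of KO exceeded that of WT by a log2 difference of 0.24 (standard error 0.0313, adjusted p = 1.21e-07, edgeR), and that of HZ differed from it by -0.43 (standard error 0.0313, adjusted p = 9.53e-16, edgeR). Against WT, *Slc18a2* in KO was higher by 0.18 unstimulated and 0.42 stimulated (adjusted p = 1.36e-09 and 2.69e-21, edgeR). HZ was higher than WT by 0.44 when unstimulated (adjusted p = 3.38e-22, edgeR) and differed from it by 0.01 when stimulated (95% interval -0.03 to 0.06, adjusted p = 0.652, edgeR). Between KO and HZ, the log2 difference was -0.26 unstimulated and 0.41 stimulated (adjusted p = 1.26e-13 and 6.06e-20, edgeR). The summed mast cell markers were at 54270 to 55190 CPM in unstimulated WT, 65490 to 66890 in HZ and 58900 to 60000 in KO. In stimulated WT, HZ and KO they were at 60550 to 60810, 58690 to 59470 and 60970 to 61610 CPM. Platelets also store serotonin, and 4 of 5 markers of platelets and megakaryocytes summed to 2015 to 2059 CPM in unstimulated WT, 2850 to 2851 in HZ and 2061 to 2068 in KO, and to 1993 to 2014, 1864 to 1900 and 2129 CPM in the stimulated groups. Most of this sum was *Itga2b*, an integrin subunit, while *Pf4*, a platelet chemokine, had at most 4 counts in any library. Within the unstimulated groups, both sums and *Slc18a2* were highest in HZ, and within the stimulated groups in KO. Over all 6 groups, both sums were highest in unstimulated HZ and *Slc18a2* in stimulated KO. Of the 11 mast cell markers, 5 were higher and 5 lower in stimulated KO than in WT, beside 40.4% of all genes in either direction. In unstimulated cells, 9 were higher and 0 lower in HZ than in WT, beside 51.4%, and 7 higher and 2 lower in KO, beside 44.6%. After stimulation in HZ, 2 rose and 9 fell, beside 64.4%. The HZ response was above that of WT in 0 markers and below it in 10, beside 38.5%. For the KO response these were 1 and 6, beside 9.27%. The part of the marked cell types in the *Slc18a2* result was not tested.

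*Maoa* and *Maob* encode the mitochondrial monoamine oxidases that deaminate amines such as serotonin, and the genes are neighbours on the X chromosome. *Maoa* had 2.99 and 2.52 CPM in unstimulated WT, 2.39 and 1.94 CPM in HZ, and 4.13 and 3.86 CPM in KO. Stimulated libraries had 2.42 and 3.06 CPM in WT, 6.15 and 5.65 CPM in HZ, and 4.53 and 5.42 CPM in KO. Stimulated HZ was the highest group and unstimulated HZ the lowest, on 64 to 202 counts per library.

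*Maoa* rose 2.72-fold after stimulation in HZ (log2 1.44, standard error 0.227, adjusted p = 3.13e-07, edgeR), which exceeded the WT response by a log2 difference of 1.45 (standard error 0.328, adjusted p = 0.000339, edgeR). Its response was -0.0048 in WT (95% interval -0.48 to 0.47, adjusted p = 0.99, edgeR) and 0.32 in KO (95% interval -0.12 to 0.75, adjusted p = 0.257, edgeR). In stimulated cells, *Maoa* was 2.15-fold higher in HZ than in WT and 1.82-fold higher in KO than in WT (adjusted p = 8.71e-05 and 0.00197, edgeR). In unstimulated cells, KO exceeded WT by 0.54 on the log2 scale (adjusted p = 0.0458, edgeR), a call lost when any of its 4 libraries was left out: the value was 0.67 without WT replicate 1, 0.42 without WT replicate 2, 0.49 without KO replicate 1 and 0.59 without KO replicate 2. Unstimulated KO also exceeded HZ by 0.88 (adjusted p = 0.0014, edgeR), and the other differences of *Maoa* were -0.34 between unstimulated HZ and WT (adjusted p = 0.241) and -0.25 between stimulated KO and HZ (adjusted p = 0.452, both edgeR).

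*Maob* was the most even member, at 376 to 415.6 CPM in the 12 libraries with a ratio of 1.11 between the highest and the lowest. Its levels were 376 and 388.6 CPM in unstimulated WT, 404.1 and 415.6 in HZ, and in KO 377.7 and 379, and the stimulated group means were 401 ± 5.40 CPM in WT, 406.9 ± 11.0 in HZ and 381.8 ± 3.81 in KO (SD, n = 2). The response of *Maob* was 0.07 in WT (adjusted p = 0.0597), -0.01 in HZ (adjusted p = 0.782) and 0.01 in KO (adjusted p = 0.773, all edgeR), whereas with library totals, under which the median gene moved by -0.32 in WT, -0.24 in HZ and -0.30 in KO, the values were -0.24, -0.24 and -0.28. *Maob* was higher in unstimulated HZ than in WT by 0.10 (adjusted p = 0.00458, edgeR), which was 0.08 and did not pass without WT replicate 1 or without HZ replicate 2. It was lower in KO than in HZ by log2 differences of -0.12 unstimulated and -0.09 stimulated (adjusted p = 0.0014 and 0.0211, edgeR), of which the stimulated one did not pass without HZ replicate 2 (-0.06), KO replicate 1 (-0.10) or KO replicate 2 (-0.08). Against WT, *Maob* in KO differed by -0.01 unstimulated and -0.07 stimulated (adjusted p = 0.727 and 0.0596, edgeR), and the stimulated difference was -0.09 and passed with DESeq2 (adjusted p = 0.0193).

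*Hnmt* had 0 and 1 counts in unstimulated WT, 4 and 0 counts in HZ, and 5 and 1 counts in KO, and 0 to 2 counts in stimulated libraries. At this depth no difference of *Hnmt* between groups was detectable, and no fold change is given.

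**Figure D3:**
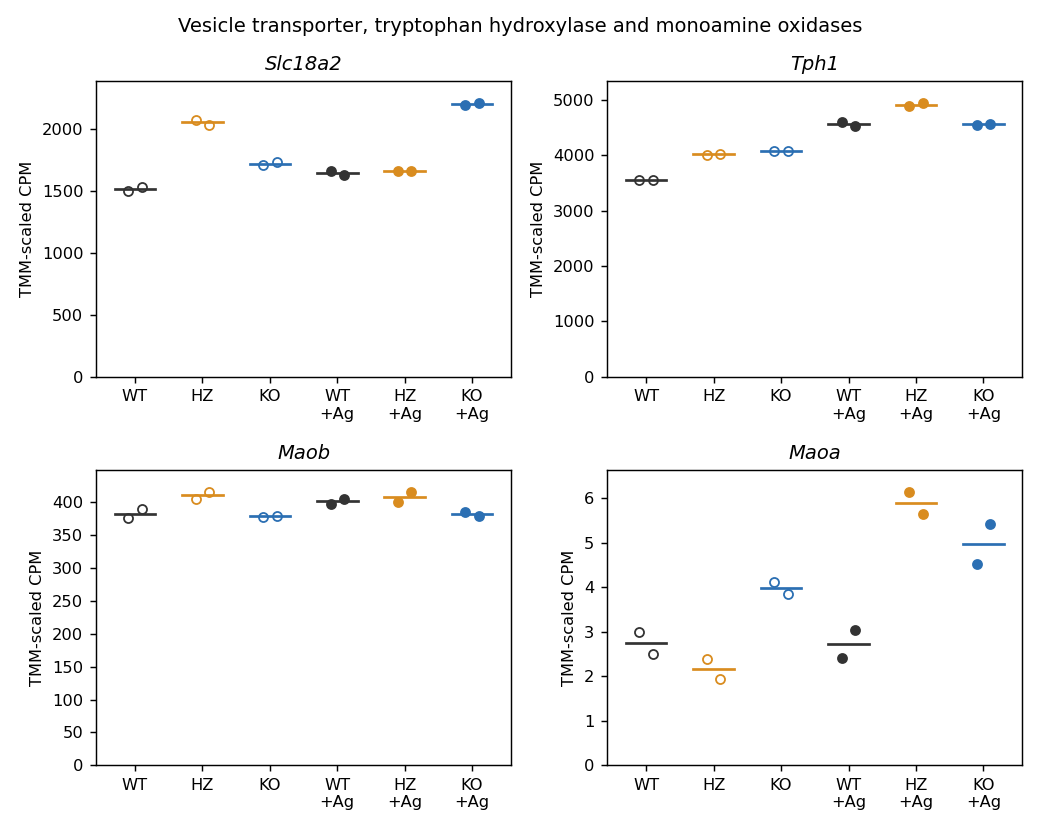
TMM-scaled CPM of *Slc18a2*, *Tph1*, *Maob* and *Maoa* on linear axes from 0, with open points for unstimulated and filled points for stimulated (+Ag) libraries and a line at each group mean. *Slc18a2* falls from 2054 to 1660 CPM in HZ and rises from 1721 to 2205 CPM in KO, and *Maob* stays between 376 and 415.6 CPM.

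The members that passed the test are counted here beside the share of all 12208 genes that passed in the same comparison. After stimulation, 4 of 6 tested members passed in WT (*Hdc*, *Ddc*, *Tph1* and *Slc18a2* higher) against 45.3% of genes. In HZ, 5 passed (*Hdc*, *Ddc*, *Tph1* and *Maoa* higher, *Slc18a2* lower) against 64.4%, and in KO, 4 passed (the same members as in WT, all higher) against 40.8%. With library totals, 2 of the members were higher and 2 lower in WT and in KO, and 4 higher and 2 lower in HZ. Under that scaling 67.5% of all genes passed in WT, 68.4% in HZ and 66.8% in KO. At a fold change of at least 2 as well, 1 member passed in WT (*Hdc*) against 6.77% of genes, 2 in HZ (*Hdc* and *Maoa*) against 14.3%, and 1 in KO (*Hdc*) against 6.61%.

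Between genotypes, 5 of 6 members passed in unstimulated KO against WT (*Hdc* and *Ddc* lower, *Slc18a2*, *Tph1* and *Maoa* higher), compared with 44.6% of genes, and 2 passed with the 2-fold threshold (*Hdc* and *Ddc*), compared with 7.51%. In stimulated KO against WT, 4 passed (*Hdc* and *Ddc* lower, *Slc18a2* and *Maoa* higher), compared with 40.4%. With the threshold of the study for stimulated cells, a ratio of at least 1.5 or at most 0.66, 3 passed (*Hdc*, *Ddc* and *Maoa*), compared with 12.7%. In unstimulated HZ against WT, 5 passed (*Hdc* and *Ddc* lower, *Slc18a2*, *Tph1* and *Maob* higher), compared with 51.4%, and 0 with the 2-fold threshold, compared with 9.15%. In stimulated HZ against WT, 4 passed (*Hdc* and *Ddc* lower, *Tph1* and *Maoa* higher), compared with 34.9%, and 3 with the fold threshold (*Hdc*, *Ddc* and *Maoa*), compared with 7.89%.

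For KO against HZ, 5 members passed in unstimulated cells (*Maoa* higher, *Hdc*, *Ddc*, *Slc18a2* and *Maob* lower) against 45.2% of genes, and 2 with the 2-fold threshold (*Hdc* and *Ddc*) against 3.36%. In stimulated cells, 5 passed (*Slc18a2* higher, *Hdc*, *Ddc*, *Tph1* and *Maob* lower) against 24.9%, and 1 with the fold threshold (*Ddc*) against 5.32%. The response of KO differed from that of WT in 3 members (*Hdc*, *Slc18a2* and *Tph1*) against 9.27% of genes, and by at least 2-fold in 1 (*Hdc*) against 0.704%. The response of HZ differed from that of WT in 4 members (*Hdc*, *Slc18a2*, *Tph1* and *Maoa*) against 38.5%, and by at least 2-fold in 2 (*Hdc* and *Maoa*) against 5.99%. With 6 members, such counts are a description and nothing particular to these genes is read from them. The comparisons with WT share the WT libraries, so the values of KO and HZ are not independent of each other.

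**Figure D4:**
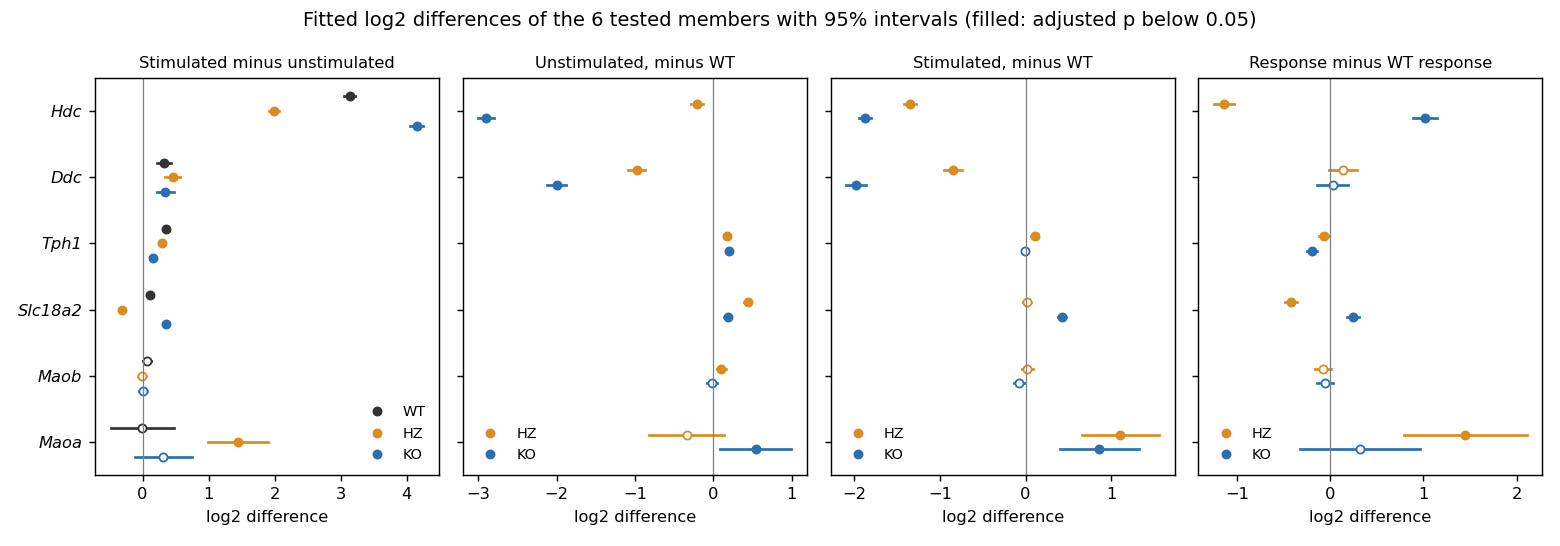
Fitted log2 differences (points) with 95% intervals (bars) of the 6 tested members: stimulated minus unstimulated in each genotype, HZ and KO minus WT in unstimulated and in stimulated cells, and the response of HZ and KO minus that of WT, with filled points where the adjusted p is below 0.05. *Hdc* has the widest range of the members, from -2.89 in unstimulated KO to 4.15 for the KO response, and *Ddc* is shifted by genotype with responses near those of WT.

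Among 9857 tested genes with at least 100 counts on average, the 3 whose log2 CPM over the 12 libraries was most correlated with that of *Hdc* were *Gfod1* (Pearson r = 0.987), *Gabpb1* (0.979) and *Tes* (0.977). For *Ddc* they were *Ggta1* (0.987), *Hdgfl3* (0.986) and *Cd244a* (0.984), and for *Slc18a2* *Ern1* (0.967), *Cerk* (0.948) and *Slc26a11* (0.944). *Tph1* had *Atp1b3* (0.982) and *Rab32* (0.980) among its 3. *Maoa* was closest to *Psma6* (0.950) and *Maob* to *Scin* (0.932). Since the 12 points share groups, states and scaling, such correlations are a description of these libraries. Between members, r was 0.68 for *Hdc* with *Ddc*, 0.63 for *Tph1* with *Maoa* and 0.58 for *Hdc* with *Tph1*. For *Slc18a2* with *Ddc* it was -0.61, and the other pairs lay between -0.39 and 0.47.

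*Gabpb1*, which encodes a partner subunit of the ETS factor GABPA, is also the protein-coding gene next to *Hdc* in the RefSeq order, which was looked up after the values were seen. In unstimulated cells its level was 46.9 and 46.8 CPM in WT, 49.3 and 45.8 CPM in HZ, and 33.2 and 36.4 CPM in KO. In stimulated cells it was 71.2 and 73.6 CPM in WT, 60.0 and 54.7 CPM in HZ, and 57.4 and 61.2 CPM in KO. Like *Hdc*, *Gabpb1* was lowest in unstimulated KO and highest in stimulated WT, but HZ overlapped with WT when unstimulated and its mean lay below that of KO when stimulated. Its response was 0.63 in WT, 0.27 in HZ and 0.77 in KO on the log2 scale (adjusted p = 7.51e-12, 0.000226 and 4.3e-14, edgeR), and KO was lower than WT by log2 differences of -0.43 unstimulated and -0.29 stimulated (adjusted p = 3.21e-07 and 0.000164, edgeR). *Slc27a2*, the gene on the other side of *Hdc*, had 0 or 1 counts. Next to *Ddc*, *Grb10* was lower in KO than in WT by log2 differences of -0.94 unstimulated and -1.29 stimulated (adjusted p = 0.000701 and 2.66e-05, edgeR), on 51 to 148 counts, and HZ differed from WT by -0.26 and -0.07 (adjusted p = 0.348 and 0.852, edgeR). *Fignl1*, the neighbour of *Ddc* on its other side, ran otherwise: HZ differed from WT by -1.51 unstimulated and 0.41 stimulated (adjusted p = 2.57e-17 and 0.000599, edgeR), and KO by -0.73 and -0.34 (adjusted p = 1.58e-08 and 0.00661, edgeR).

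Tryptophan hydroxylase needs tetrahydrobiopterin, and the decarboxylases need pyridoxal phosphate. All 10 listed genes that make or recycle these cofactors, or regulate their synthesis, were tested. Of these, 5 were higher and 2 lower after stimulation in WT, 7 higher and 1 lower in HZ, and 4 higher and 2 lower in KO. The shares of all genes that rose and fell were 22.4% and 22.9% for WT, 32.9% and 31.6% for HZ, and 20.4% and 20.5% for KO. With library totals, 2 genes were higher and 3 lower in WT, 6 higher and 2 lower in HZ, and 1 higher and 5 lower in KO, beside 67.5%, 68.4% and 66.8% of all genes that passed in either direction. The median log2 response of the 10 genes was 0.26 in WT, 0.40 in HZ and -0.07 in KO, beside -0.01, -0.0048 and -0.0068 over all genes tested. *Gch1*, which encodes the first enzyme of tetrahydrobiopterin synthesis, rose from 250.7 ± 7.69 to 1306 ± 15.0 CPM in WT, from 224.1 ± 6.24 to 1083 ± 7.38 in HZ and from 253.3 ± 12.2 to 1220 ± 14.1 in KO (SD, n = 2). These are log2 responses of 2.38, 2.27 and 2.27 (adjusted p = 3.14e-47, 2.24e-46 and 1.89e-46, edgeR). Unlike *Hdc*, *Gch1* reached similar levels in WT and KO, with a stimulated KO against WT difference of -0.10 (adjusted p = 0.00423, edgeR).

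*Pts*, the gene of the next enzyme of that synthesis, fell in all 3 genotypes, with log2 responses of -0.66, -0.66 and -0.54 in WT, HZ and KO (adjusted p = 4.38e-09, 1.36e-09 and 6.62e-07, edgeR). Between genotypes, 4 of the 10 cofactor genes were higher and 1 lower in unstimulated KO than in WT, and 2 were higher and 2 lower in stimulated cells, close to the 44.6% and 40.4% of all genes that passed in these comparisons.

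**Figure D5:**
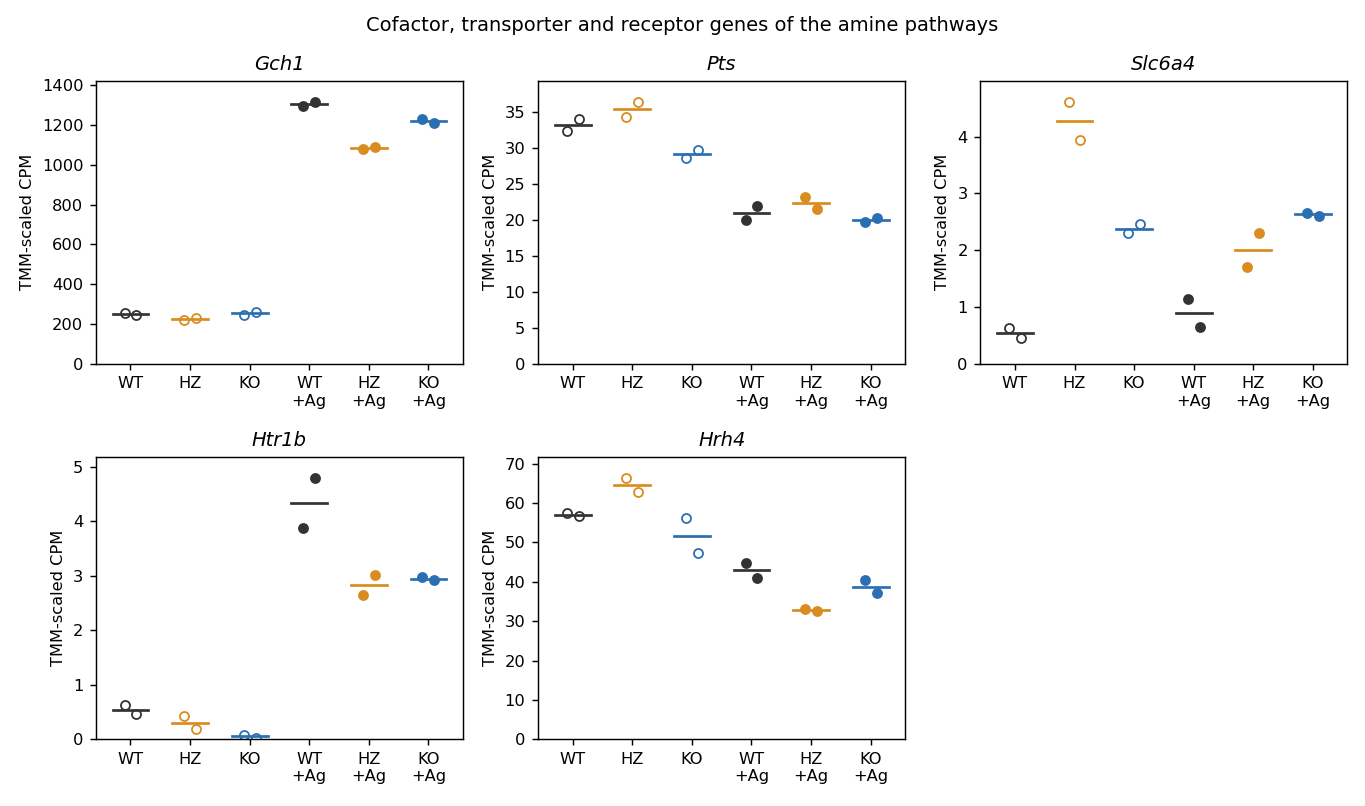
TMM-scaled CPM of the cofactor genes *Gch1* and *Pts*, the serotonin transporter gene *Slc6a4* and the receptor genes *Htr1b* and *Hrh4*, on linear axes from 0, with open points for unstimulated and filled points for stimulated (+Ag) libraries and a line at each group mean. *Gch1* rises to between 1083 and 1306 CPM on average in the 3 genotypes, and *Slc6a4* is highest in unstimulated HZ.

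Of 22 other genes of serotonin handling, 14 were present in the table and 6 were tested. Of these 6, 4 were higher after stimulation in WT (*Htr1b*, *Aldh2* and, on at most 36 and 37 counts, *Htr7* and *Asmt*) and 0 lower, 1 higher and 2 lower in HZ, and 1 higher and 0 lower in KO, beside 45.3%, 64.4% and 40.8% of all genes in either direction. With library totals, 2 were higher and 1 lower in WT, where *Aldh2* turned from 0.08 to -0.23, 1 higher and 2 lower in HZ, and 1 higher and 1 lower in KO, beside 67.5%, 68.4% and 66.8% of all genes. *Slc6a4*, which encodes the plasma membrane serotonin transporter, had 21 and 16 counts in unstimulated WT, 160 and 130 counts in HZ, and 86 and 87 counts in KO. It was higher than in WT by 2.97 on the log2 scale in unstimulated HZ and by 2.12 in unstimulated KO (adjusted p = 8.27e-10 and 3.9e-06, edgeR). After stimulation, *Slc6a4* had 34 and 19 counts in WT, 56 and 68 counts in HZ, and 74 and 75 counts in KO, with differences from WT of 1.16 in HZ and 1.56 in KO (adjusted p = 0.00837 and 0.000272, edgeR). *Htr1b*, the gene of an inhibitory serotonin receptor, rose from 21 and 16 to 115 and 143 counts in WT and from 15 and 6 to 87 and 89 in HZ, with log2 responses of 2.99 and 3.18 (adjusted p = 7.17e-09 and 8.65e-09, edgeR). In KO, *Htr1b* went from 3 and 1 counts to 83 and 84, a rise that passed (adjusted p = 6.2e-12, edgeR), for which no fold change is given. *Aldh2*, a mitochondrial aldehyde dehydrogenase that acts on the products of monoamine oxidase, was higher than in WT by 0.47 in unstimulated KO and 0.49 in unstimulated HZ (adjusted p = 7.1e-22 and 7.66e-23, edgeR).

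Of 10 genes of histamine uptake, breakdown and reception, 7 were present and 2 were tested, both of them receptors. Both were lower after stimulation in WT and 1 of them was lower in HZ and in KO, while with library totals both were lower in all 3 genotypes, and the shares of all genes that passed are those given for serotonin handling. *Hrh4*, the receptor gene best known from leukocytes, had log2 responses of -0.41 in WT, -0.98 in HZ and -0.42 in KO (adjusted p = 2.29e-06, 6.69e-17 and 2.43e-06, edgeR). *Hrh2* had a response of -0.25 in WT (adjusted p = 0.0159, edgeR) and was lower than in WT by -0.41 in unstimulated KO (adjusted p = 0.000105, edgeR). Among 4 regulators (*Elk4*, *Mitf* and *Sirt6*, which the study names, and *Gata2*), 2 were higher and 0 lower in unstimulated HZ than in WT. There, 25.4% of all genes were higher and 26% lower. In the other comparisons between groups, none of the regulators was higher. After stimulation, 3 were lower in WT, 3 in HZ and 2 in KO, beside 22.9%, 31.6% and 20.5% of genes. Against WT, 3 were lower in unstimulated KO, 1 in stimulated KO and 2 in stimulated HZ, beside 21.7%, 19.2% and 16.5%. Against HZ, 2 were lower in unstimulated KO and 1 in stimulated KO, beside 21.8% and 12%. *Gata2*, a factor of the mast cell lineage, was lower in KO than in WT by -0.31 unstimulated and -0.28 stimulated (adjusted p = 4.07e-15 and 9.13e-14, edgeR).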

How the data were processed

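BMMC RNA of 12 libraries in 6 groups of 2 was analysed. The authors deposited raw read counts per gene and FPKM values, scaled by gene length and library total. The submitters' processing notes name fastp, HISAT2, HTSeq and GRCm39 without versions. The annotation and strand setting are not given in the sources used here. Columns without a sample numbered 0.

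The count analysis used edgeR 4.0.16 under R 4.3.3, with filterByExpr (12208 of 16234 genes kept; 172 had no counts), TMM factors (1.08 to 1.12 in unstimulated, 0.902 to 0.924 in stimulated libraries) and a quasi-likelihood fit with 1 mean per group (6 residual and 38.9 prior degrees of freedom, prior count 0.125), two-sided with Benjamini-Hochberg adjustment over all genes tested. The threshold was an adjusted p of 0.05, and the fold thresholds of the study were a second rule. Totals of 29697958 to 35531667 counts give a floor of 3 counts, or 0.0844 to 0.101 CPM. Tested on simulated data of unstimulated KO against WT with 12208 genes, the fit called 100 of 100 genes changed by 1.5 and 80 of 100 changed by 0.5 on the log2 scale, and 12 of 12008 unchanged ones. The simulated counts took the spread fitted to these data, with changes only in genes above a minimum mean count. They held no shift in composition between states, so these rates do not cover the choice of scaling. Of 5 sex-linked genes listed, 0 were present, so the sex behind the libraries could not be checked with them.

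Alternatives were DESeq2 1.42.0, its size factors in edgeR, library totals, other count filters, only the groups compared, replicate blocks, an adjusted p below 0.01, limma 3.58.1 on log2(FPKM + 1) (with and without a minimum mean FPKM of 0.5) and on log2(FPKM + 0.1), and leaving out each library. The members and gene lists were chosen with earlier results of these data known. A listed gene could be named where it passed and changed 2-fold or more in any comparison of groups. *Pts*, *Aldh2*, *Hrh2*, *Hrh4* and *Gata2* changed less and were chosen after their values were seen, as were the neighbours of members. Genes most like a member were the 3 with the highest Pearson correlation. Some genes that these rules name are not reported here. Promoters are RefSeq sequences on GRCm38.p6, a build other than that of the counts.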

Additional observations from a re-analysis of the deposited data

Results flagged for a closer look

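The tests of the difference in response from WT called 3 members in KO, beside 9.27% of all genes, and 4 in HZ, beside 38.5%. The response of *Hdc* differed from that of WT by 1.02 on the log2 scale in KO and by -1.14 in HZ, so the genotypes lay on opposite sides of WT, and neither value changed its call under any setting run. The response of *Slc18a2* differed from that of WT by 0.24 in KO and by -0.43 in HZ. That of *Tph1* differed by -0.20 in KO and by -0.07 in HZ, the smallest of these values. The response of *Maoa* differed by 1.45 in HZ, on 64 to 202 counts per library. Groups of 2 libraries allow no test for a library that stands apart.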

How the results depend on the processing

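Each member result was counted once for each setting. Of those past the threshold, 534 kept direction and call, 50 fell short and 12 changed direction over the settings that kept every library. These settings include the fold thresholds of the study and an adjusted p below 0.01, which are stricter rules on the same fit. With 1 library left out, 209 kept both and 11 fell short. The counts of members that passed moved by more than 1.5 times with the fold thresholds of the study, to 1 for the WT response, 2 for HZ and 1 for KO, 2 for unstimulated KO against WT, 0 for unstimulated HZ against WT, 2 and 1 for unstimulated and stimulated KO against HZ, and 1 and 2 for the response differences of KO and HZ from WT. In the same order, the shares of all genes fell to 6.77%, 14.3%, 6.61%, 7.51%, 9.15%, 3.36%, 5.32%, 0.704% and 5.99%.

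The 12 changes of direction among results past the threshold all came with library totals or with FPKM. Library totals turned the responses of *Slc18a2* in WT to -0.19 and *Tph1* in KO to -0.13, and the difference of the HZ *Tph1* response from WT to 0.0046. With limma on FPKM, which carries the same scaling, these were -0.19, -0.13 and 0.0047 with a pseudocount of 0.1 and with a pseudocount of 1, with or without a filter. Another 16 values that had not passed turned as well. The *Maob* responses in WT and KO were -0.24 and -0.28 with library totals and with a pseudocount of 0.1 on FPKM, and -0.24 and -0.27 with a pseudocount of 1, with or without a filter. With DESeq2 the values that turned were 0.01 (*Maoa*, WT response), -0.0074 (*Slc18a2*, stimulated HZ against WT) and -0.0013 (*Maob*, stimulated HZ against WT), with its size factors in edgeR 0.0102, -0.0074 and -0.0012, and with only the groups compared 0.0028 for *Maoa* and -0.0029 for *Slc18a2*.

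With libraries left out, ranges that crossed 0 were -0.18 to 0.15 for the *Maoa* response in WT, -0.0253 to 0.0765 for the KO minus WT response of *Ddc*, -0.0334 to 0.0135 for *Maob* in unstimulated KO against WT, -0.013 to 0.0084 for *Tph1* in stimulated KO against WT, -6e-04 to 0.0303 for *Slc18a2* and -0.0066 to 0.0484 for *Maob* in stimulated HZ against WT, and -0.038 to 0.017 for the *Maob* response in HZ.

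Replicate numbers were shared by the groups, but a pairing was not seen: the difference between replicates correlated between states at -0.0281 in WT, 0.0667 in HZ and -0.0118 in KO over 9858 genes. With the replicate block, 5 members passed in the WT response, beside 45.6% of all genes, and 5 in stimulated KO against WT, beside 40.7%. *Maob* was among them in both (0.07 and -0.07, adjusted p = 0.0466 and 0.0476, edgeR), and a block within genotype added *Maob* in WT (0.07, adjusted p = 0.0426, edgeR). The block changed no other call. Among results that had not passed, 22 gained a call with every library kept: *Maob* in stimulated KO against WT in 6 settings (DESeq2, its size factors, library totals, at least 10 counts in every library, only the groups compared and the block), the *Maob* response in WT in 5, the *Maob* response in HZ and *Tph1* in unstimulated KO against HZ in 4 each, and the *Ddc* response difference of HZ from WT in 3. A member below a few counts, as *Hnmt*, could not be compared at this depth.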

Other observations

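*Siglecf*, a sialic acid-binding receptor listed as an eosinophil marker and the one of 3 listed that was present, had 38 and 20 counts in unstimulated WT, 15 and 30 counts in HZ, and 5 and 3 counts in KO. After stimulation it had 106 and 80 counts in WT, 43 and 73 counts in HZ, and 55 and 64 counts in KO. Unstimulated KO was lower than WT by a log2 difference of -2.92 and stimulated KO differed from WT by -0.57, of which the first passed edgeR's quasi-likelihood test and the second did not. *Lyz2*, a lysozyme of macrophages and granulocytes, had 131 and 160 counts in unstimulated WT, 316 and 375 counts in HZ, and 362 and 432 counts in KO. Of 8 macrophage and monocyte markers, 4 had at most 10 counts in every library. Of the 4 tested, 1 was higher and 0 lower in unstimulated KO than in WT, beside 44.6% of all genes in either direction. In unstimulated HZ, 2 were higher and 0 lower, beside 51.4%. The median log2 difference of the 4 tested markers from WT was -0.09 in KO and -0.07 in HZ.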
